A study of Rattus norvegicus with 6 samples.

Results

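The platelet-derived growth factor (PDGF) family was followed here through the transcripts of its 2 receptors, Pdgfra and Pdgfrb, and its 4 ligand chains, Pdgfa, Pdgfb, Pdgfc and Pdgfd. These 6 genes were found by their symbols among the 34156 genes of the deposited count table. RNA had been sequenced from 6 libraries of rat fibroblast-like synoviocytes described as rheumatoid arthritis cells (RA-FLS), of WT genotype, bought as a cell stock and used at the 4th generation. All 6 received 10 ng/mL TNF-α, an inflammatory cytokine. In the TNF-α group (3 libraries) nothing else was given, and in the TNF-α+EMO group (3 libraries) 80 μmol/L EMO (emodin, a plant anthraquinone) was added. The sample labels give day 5 for every library, whereas the study's methods give 24 h for this treatment. No group without TNF-α was analysed here, so each difference is that of adding EMO to TNF-α. The study's methods name 3 biological replicates per condition. The labels do not say whether the 3 libraries of a group came from separate cultures, and p-values then measure the spread between these libraries only.

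PDGFs are dimeric growth factors for cells of mesenchymal origin. The A and B chains are cut by furin-like proteases inside the cell, whereas the C and D chains are secreted in a latent form and activated outside it by other proteases. PDGFRα binds dimers of the A, B and C chains, and PDGFRβ binds mainly those of the B and D chains. Both receptors are tyrosine kinases that recruit PI3K, PLCγ, Src and the Ras-MAPK cascade, and in the synovium PDGF is known as a mitogen for fibroblast-like synoviocytes.

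Adding EMO was accompanied by far fewer transcripts of both PDGF receptors, fewer Pdgfc transcripts and more Pdgfa transcripts. Pdgfra was 96.4-fold lower and Pdgfrb 21.8-fold lower in the TNF-α+EMO group, whereas Pdgfc was 2.18-fold lower and Pdgfa 1.65-fold higher. Pdgfb and Pdgfd were near or at 0 in all libraries. Of the 6 genes, 4 had enough counts to be tested, and all 4 passed an adjusted p of 0.05 by edgeR's quasi-likelihood test, 3 lower and 1 higher. This count has to be read against the whole transcriptome, in which 80.9% of the 13614 tested genes passed, 41.4% lower and 39.4% higher with EMO. At an absolute log2 fold change over 1 as well (a DEG), Pdgfra, Pdgfrb and Pdgfc passed and Pdgfa did not, where 47.3% of all tested genes passed, 27.8% of all being lower and 19.5% higher. The groups did not overlap in any of the 4 tested genes, as in 82.9% of all tested genes. The size of the receptor differences was less common, and 2.64% of tested genes had a log2 fold change at or below that of Pdgfra, and 5.85% one at or below that of Pdgfrb.

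**Figure D1:**
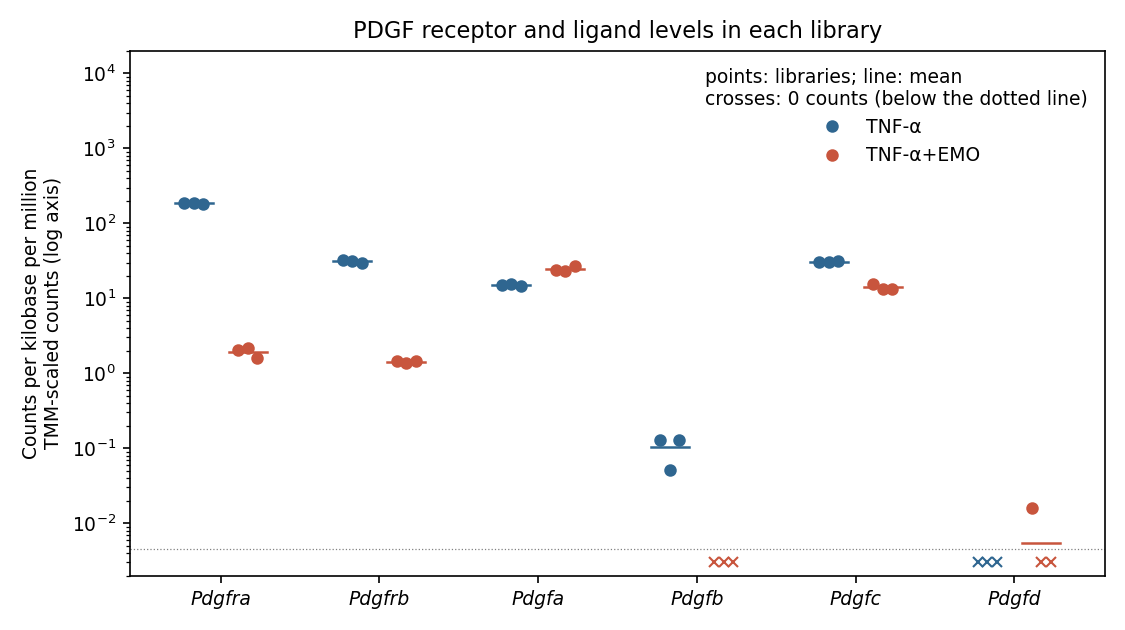
Level of each PDGF gene in TMM-scaled CPM per kilobase of gene length (log axis), with 1 point for each of the 3 TNF-α and 3 TNF-α+EMO libraries and a line at the mean. Crosses below the dotted line are libraries with 0 counts. The TNF-α+EMO libraries lie below the TNF-α libraries for Pdgfra (about 1.93 against 186.3 on average), Pdgfrb (1.42 against 31.0) and Pdgfc (14.1 against 30.7), and above them for Pdgfa (24.6 against 15.0).

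Before the single genes, the libraries were checked. They held 16813322 to 17794455 counts on genes, and no replicate pair was a copy of another (chi-square per gene of 4.72 to 25.2 within groups). The largest values were those of TNF-α+EMO replicate 3 against replicates 1 and 2 (25.2 and 16.1), which gave 6.63 against each other. Fibroblast markers were abundant in the TNF-α group, with a summed level of 10909 to 12060 CPM (counts scaled to library size) led by Col1a1 and Vim, and were lower in the TNF-α+EMO group (2033 to 2193 CPM). Of the 11 markers in the table, 8 were tested, of which 7 were lower and 1 was higher with EMO. Thy1, Pdpn, Fap, Prg4 and Lum were at 0 in all TNF-α+EMO libraries. Several synoviocyte markers were near absent in the TNF-α group too, with 7, 6 and 3 counts of Thy1, 4, 3 and 4 of Prg4 (lubricin) and 1, 0 and 0 of Pdpn. Pericyte or smooth muscle markers, which mark the cells best known for PDGFRβ, summed to 58.6 to 63.5 CPM with TNF-α and to 4.82 to 5.93 CPM with EMO, with Rgs5 and Kcnj8 at 0 in all 6 libraries. Macrophage markers summed to 70.2 to 76.4 and 43.5 to 47.6 CPM (Cd163 and Tyrobp at 0 in all), endothelial markers to 4.09 to 4.51 and 0.949 to 1.32 CPM (Kdr, Emcn and Cldn5 at 0 in all), platelet markers to 3.77 to 4.09 and 4.88 to 6.34 CPM (Pf4 and Ppbp at 0 in all), and epithelial markers to 579.1 to 629.3 and 115.5 to 135.8 CPM (Epcam and Krt5 at 0 in all). In these bulk libraries, fewer cells of a type and less RNA per cell cannot be told apart. Among tested macrophage markers, Cd14 was lower with EMO (log2 fold change -1.10), whereas Cd68 (0.75) and Itgam were higher. Itgam had 12, 10 and 14 counts with EMO and 1, 0 and 0 with TNF-α alone. Among tested epithelial markers, Krt8 was lower (-2.28) and Cldn4 higher, at 16, 17 and 28 counts against 0. The lower macrophage and epithelial sums thus rest mainly on Cd14 and Krt8. The summed fibroblast, pericyte, macrophage, endothelial and epithelial markers were all lower with EMO, as the receptors were, and their part in the receptor differences was not tested.

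The Pdgfra gene (ENSRNOG00000002244) lies on chromosome 14 at 35527927 to 35581031 on the minus strand of Rnor_6.0, the build given in the submitters' processing notes, and Pdgfa (ENSRNOG00000001312) on chromosome 12 at 17734133 to 17755285 on the plus strand. These were the tested member that fell most and the tested member that rose, so the bases before their start sites are shown. The sequences are RefSeq's, from the rat assembly GRCr8 and not from Rnor_6.0, and are cut to the bases before the RefSeq gene model. They were read 5′ to 3′ on the strand of the gene, and capitals mark the match to a searched motif. The windows are GRCr8 chr14:33408605-33408766 on the minus strand for Pdgfra and chr12:20759116-20759365 on the plus strand for Pdgfa.
Pdgfra: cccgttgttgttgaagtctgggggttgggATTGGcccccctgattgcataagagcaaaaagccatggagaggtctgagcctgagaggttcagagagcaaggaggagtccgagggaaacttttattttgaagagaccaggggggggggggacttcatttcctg
Pdgfa: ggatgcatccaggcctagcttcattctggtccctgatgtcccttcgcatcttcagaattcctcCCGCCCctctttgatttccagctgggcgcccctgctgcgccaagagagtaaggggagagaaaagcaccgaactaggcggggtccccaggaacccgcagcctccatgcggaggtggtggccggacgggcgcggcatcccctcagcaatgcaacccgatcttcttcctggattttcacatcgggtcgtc

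The motifs searched for on both strands were the CCAAT box, the GC box GGGCGG, the TATA box TATAAA, the AP-1 site TGAGTCA, the xenobiotic response core GCGTG and the E-box CACGTG, none of which contains another. The 162 bases before Pdgfra held 1 match, CCAAT on the reverse strand, starting 133 bases before the end of the window, and 23.3% of all RefSeq windows of that length held this motif. The 250 bases before Pdgfa held 1 match, GGGCGG on the reverse strand, 187 bases before the end, and 30.5% of all windows of that length held it. These shares are matched by length and not by position, since the windows of all genes were not cut to their gene models. GC content was 53.7% for the Pdgfra window and 60.8% for that of Pdgfa. A match is a description of the letters in the window and not evidence of binding. Of the 6 members, 5 were found in the RefSeq table of sequences, and Pdgfrb was not.

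Pdgfra, which encodes PDGFRα, was counted 21416, 21517 and 21089 times in the libraries treated with TNF-α alone and 220, 238 and 175 times in those that also received EMO. Every TNF-α library thus held many more counts than any TNF-α+EMO library. On the scale of normalized counts (TMM, scaled to the mean library), the level fell from 20844 ± 260 to 216 ± 33.9 (SD over 3 libraries), with a log2 fold change of -6.59 ± 0.11 (SE, edgeR, adjusted p = 3.3e-12). Within the TNF-α group Pdgfra was among the most abundant transcripts per length, above 97.2% of the tested genes. In the TNF-α+EMO group its level was above 25.1% of them. It remained measurable there at this depth, with 175 counts in the lowest library.

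Pdgfrb (ENSRNOG00000018461, chromosome 18, 56364620 to 56406381, plus strand) encodes PDGFRβ, the receptor best known for pericyte recruitment. It had 3200, 3170 and 2951 counts with TNF-α and 137, 132 and 138 with TNF-α+EMO. The groups did not overlap, and the 3 TNF-α+EMO libraries were close to each other. Normalized counts fell from 3035 ± 141 to 139 ± 3.41 (SD over 3 libraries), with a log2 fold change of -4.45 ± 0.08 (SE, edgeR, adjusted p = 4.6e-12). Per length, Pdgfrb lay above 77.0% of the tested genes with TNF-α and above 21.2% with TNF-α+EMO.

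The receptors did not fall in proportion. Of the summed per-length level of both receptors, Pdgfra made up 85.4, 85.6 and 86.2% with TNF-α alone and 58.4, 61.2 and 52.6% with EMO added. This share therefore dropped by 28.3 percentage points, from 85.7 ± 0.42% to 57.4 ± 4.39% (SD, n = 3 each), and the remainder was Pdgfrb. The groups did not overlap. An exact two-sided permutation test gave p = 0.1, the smallest that 3 libraries against 3 allow. The shares do not depend on the scaling between libraries, since each is formed within a library.

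Among the tested ligand chains, Pdgfa was higher with EMO and Pdgfc was lower. PDGF-A, which forms the PDGF-AA dimer that binds only PDGFRα, had 497, 513 and 482 counts with TNF-α and 756, 733 and 852 with TNF-α+EMO. Every TNF-α+EMO library was higher than every TNF-α library. Normalized counts rose from 486 ± 15.4 to 799 ± 61.3 (SD over 3 libraries), with a log2 fold change of 0.72 ± 0.09 (SE, edgeR, adjusted p = 1.3e-05).

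Pdgfc (ENSRNOG00000010695, chromosome 2, 179952227 to 180128283, plus strand) encodes a latent ligand whose CUB domain is removed outside the cell. It had 1434, 1456 and 1511 counts with TNF-α and 691, 614 and 617 with TNF-α+EMO. The lowest TNF-α library was above the highest TNF-α+EMO library. Normalized counts fell from 1433 ± 34.6 to 656 ± 48.7 (SD over 3 libraries), with a log2 fold change of -1.13 ± 0.08 (SE, edgeR, adjusted p = 1.2e-07).

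Pdgfb (ENSRNOG00000017197, chromosome 7, 121214628 to 121232741, minus strand), whose product binds both receptors, had 5, 2 and 5 counts with TNF-α and 0 in each TNF-α+EMO library. It did not reach the minimum of 10 counts in 3 libraries and was not tested with the other genes. With a floor of 3 counts over the group in place of the 0 of TNF-α+EMO, it was 3.81-fold lower with EMO. This value takes the counts with TNF-α as exact and is no lower limit. An exact permutation test gave p = 0.1, the smallest possible. Pdgfd (ENSRNOG00000029148, chromosome 8, 4440876 to 4669014, plus strand), a latent ligand of PDGFRβ, had 1 count in 1 TNF-α+EMO library and 0 in the other 5, so no difference was detectable at this depth. The cells thus held almost no transcript of the chains that PDGFRβ mainly binds, and Pdgfa and Pdgfc made up nearly all ligand transcripts in both groups.

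The leading ligand chain changed between the groups. Pdgfa made up 33.1, 33.6 and 31.3% of the summed per-length ligand level with TNF-α alone and 61.1, 63.2 and 66.5% with EMO added (32.7 ± 1.18% against 63.6 ± 2.72%, SD, n = 3 each), a difference of 30.9 percentage points. Pdgfc went the other way, from 66.6, 66.3 and 68.4% to 38.9, 36.8 and 33.5%. Exact permutation tests of both shares gave p = 0.1, the smallest possible. Since Pdgfa rose while Pdgfc fell, the summed ligand level per length differed less than either of them. It was 45.8 ± 0.44 with TNF-α and 38.7 ± 1.89 with TNF-α+EMO (SD, n = 3 each, 1.18-fold lower). The groups did not overlap in this sum (exact permutation test, p = 0.1, the smallest possible). The summed receptor level went from 217.3 ± 3.76 to 3.35 ± 0.28, 64.8-fold lower. As a result, there were 4.85, 4.77 and 4.62 units of receptor level per unit of ligand level with TNF-α alone and 0.0883, 0.0973 and 0.0754 with EMO added, a 54.6-fold difference in the mean ratio.

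**Figure D2:**
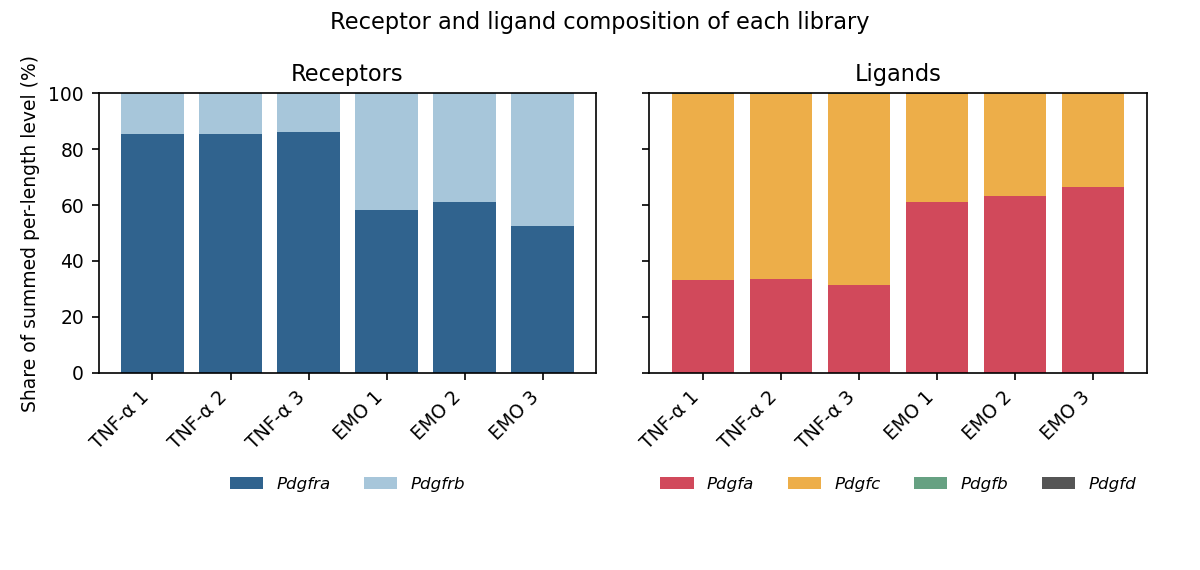
Composition of the receptor transcripts (left) and ligand transcripts (right) in each of the 6 libraries, as the share in percent of the summed level per gene length. Pdgfra makes up 85.4 to 86.2% of receptor level with TNF-α alone and 52.6 to 61.2% with EMO added (libraries named EMO on the axis), and Pdgfa rises from 31.3 to 33.6% to 61.1 to 66.5% of ligand level.

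The order of the levels per length was therefore different in the groups. With TNF-α it ran from Pdgfra (186.3 CPM per kilobase) through Pdgfrb (31.0) and Pdgfc (30.7), whose libraries overlapped, to Pdgfa (15.0), Pdgfb (0.104) and Pdgfd (0). With TNF-α+EMO it ran from Pdgfa (24.6) through Pdgfc (14.1) and Pdgfra (1.93) to Pdgfrb (1.42), and no 2 neighbours among these 4 overlapped. The closest were Pdgfra and Pdgfrb, where the lowest library of Pdgfra (1.59) was just above the highest of Pdgfrb (1.44). Relative to all tested genes, Pdgfa moved from above 58.0% of them to above 70.8%, and Pdgfc from above 76.7% to above 59.1%.

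Genes that process PDGF chains or bind them outside the cell were mostly lower with EMO. Of 13 such genes, 11 were tested and all passed, 9 lower and 2 higher, where 80.9% of all tested genes passed, 41.4% lower and 39.4% higher. Their median log2 fold change was -1.65, where that of all tested genes was -0.01. Furin, a convertase that cuts the A and B chains, was at 5588 ± 214 normalized counts with TNF-α and 1785 ± 95.0 with TNF-α+EMO (SD, n = 3 each), with a log2 fold change of -1.65 (adjusted p = 1.2e-09 by edgeR). The related convertases were split, with log2 fold changes of -1.23 for Pcsk5, -0.50 for Pcsk7 and 1.07 for Pcsk6. Plat, the tissue plasminogen activator that activates PDGF-C, fell from 1941 ± 98.0 to 411 ± 109 normalized counts (log2 fold change -2.24 ± 0.16 SE, edgeR, adjusted p = 1.9e-06). With EMO it was counted 340, 525 and 340 times, far below the 1885 to 2070 times of the TNF-α group. The proteases linked to PDGF-D activation were low throughout. St14 (matriptase) had 20, 30 and 19 counts with TNF-α and 0, 0 and 3 with TNF-α+EMO, a ratio of 21.9 (exact 95% counting interval 7.20 to 109). All 3 of the latter counts came from replicate 3, without which the fitted log2 fold change went from -4.30 to -7.50. Plau (urokinase) had 4, 4 and 2 counts with TNF-α and 0 with TNF-α+EMO and was not tested.

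The tested co-receptors and binders were lower apart from Dcn. Thbs1, thrombospondin-1, a matrix protein that binds PDGF, had 33081, 34212 and 34459 counts with TNF-α and 132, 117 and 103 with TNF-α+EMO (log2 fold change -8.11 ± 0.10 SE, edgeR, adjusted p = 8.1e-13). Lrp1, an endocytic receptor that associates with PDGFRβ, fell from 33784 ± 3308 to 3614 ± 77.7 normalized counts (log2 fold change -3.23, adjusted p = 3.9e-11 by edgeR), and Nrp1, a neuropilin co-receptor, from 1513 ± 73.5 to 120 ± 19.8 (-3.65, adjusted p = 2.5e-10). Sparc, which binds the B chain, had a log2 fold change of -1.16 and stayed abundant, at 7018 ± 346 normalized counts with TNF-α+EMO. Dcn, the proteoglycan decorin, was higher, with 33, 24 and 26 counts against 0, 4 and 1 (log2 fold change 4.02 ± 0.61 SE, edgeR, adjusted p = 1e-04), and 5.53 without TNF-α replicate 2. A2m had at most 4 counts in any library and was not tested.

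**Figure D3:**
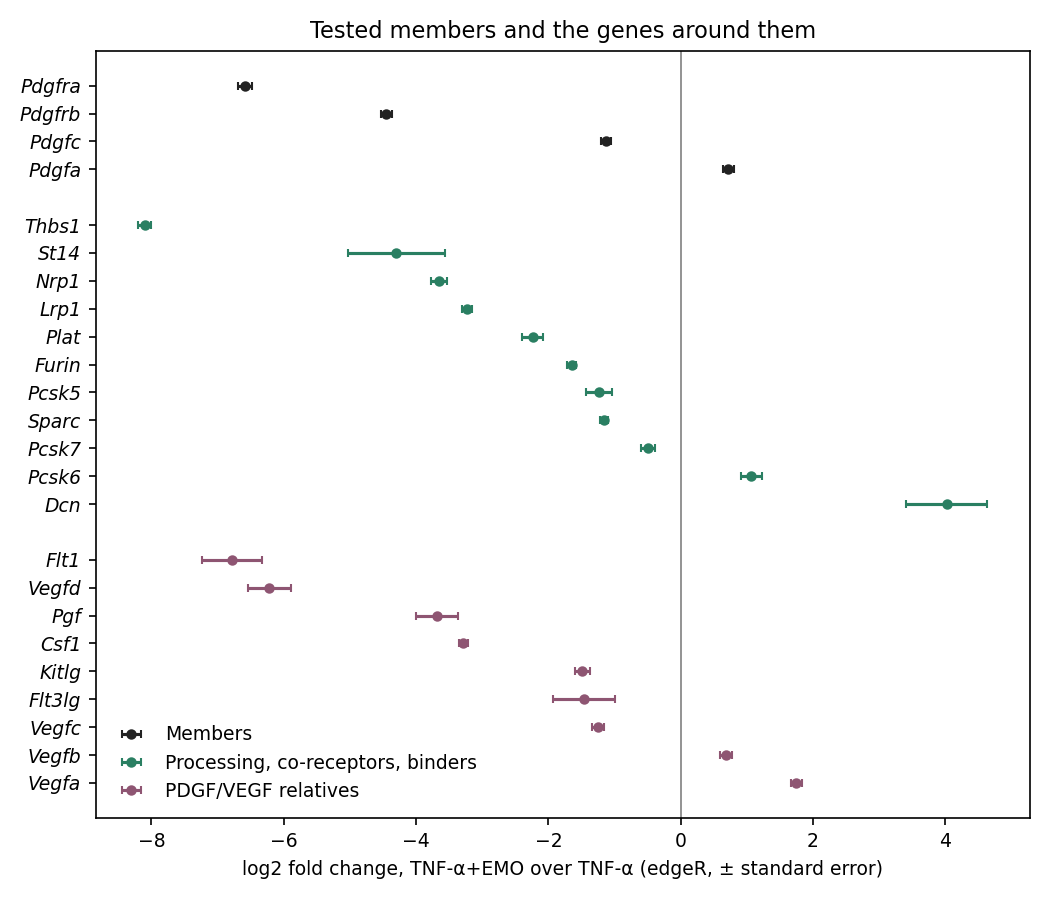
Log2 fold change of TNF-α+EMO over TNF-α (edgeR, bars are ± 1 standard error, n = 3 libraries each) for the 4 tested PDGF genes, 11 genes of ligand processing and binding and 9 relatives of the family. Among the PDGF genes only Pdgfa (0.72) lies to the right of 0, and Thbs1 (-8.11) and Flt1 (-6.78) lie farthest to the left in the other groups.

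Relatives of the family also showed a split between ligands. The list held VEGF ligands and receptors and the receptors and ligands of the KIT, CSF1R and FLT3 class, with 16 genes in the table, of which 9 were tested and all passed, 7 lower and 2 higher (median log2 fold change -1.49), beside 80.9% passing and 41.4% lower among all tested genes, with a median of -0.01. Vegfa, the main angiogenic ligand of the wider PDGF/VEGF family, had 2277, 2237 and 1929 counts with TNF-α and 6295, 6908 and 7461 with TNF-α+EMO (log2 fold change 1.75 ± 0.08 SE, edgeR, adjusted p = 6.5e-09). Vegfb had a log2 fold change of 0.69. Hence in each branch a ligand rose, Pdgfa among the PDGF chains and Vegfa and Vegfb among the VEGFs, while others fell. Vegfc was lower (-1.25), as were Vegfd (-6.22) and placental growth factor, Pgf (-3.68). Vegfd held 1 or 2 counts per TNF-α+EMO library, and Pgf held 6, 4 and 9. Flt1, a VEGF receptor, had 84, 95 and 94 counts with TNF-α and 1, 0 and 1 with TNF-α+EMO, a ratio of 130.1 (exact 95% counting interval 35.7 to 1080).

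Apart from Flt1, the other receptors of these classes were hardly present in either group. Kit had 1 count in all 6 libraries together, Kdr had 0, Flt3 had at most 3 in any library and Csf1r had 5, 3 and 4 with TNF-α and 2, 1 and 0 with TNF-α+EMO. Flt4 had 4, 5 and 2 counts and Pdgfrl, a PDGF receptor-like gene, 3, 7 and 5 with TNF-α, and both had 0 with TNF-α+EMO. Against the floor, Pdgfrl was 4.77-fold lower with EMO, again with its counts with TNF-α taken as exact. None of these was tested. Their ligands were present, and Csf1 fell from 10576 ± 291 to 1083 ± 76.5 normalized counts (log2 fold change -3.29, adjusted p = 1.7e-11 by edgeR). Kitlg had a log2 fold change of -1.49 (adjusted p = 3.5e-07) and Flt3lg one of -1.46 (adjusted p = 0.015), which no longer passed without TNF-α replicate 3 (adjusted p = 0.059). Il34 had at most 9 counts in any library.

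Most other growth factor receptor tyrosine kinases that were tested were lower too. Of 23 listed, 18 were tested and all passed, 16 lower and 2 higher, where 80.9% of all tested genes passed and 41.4% were lower. The median of the list was -1.88 on the log2 scale, against -0.01 for all tested genes. Ror1 and Ror2, Wnt5a receptors, had log2 fold changes of -7.32 and -4.85. For Ror1 the 3 TNF-α+EMO libraries held 6, 1 and 2 counts, and its value was -8.27 without replicate 1 of that group. Egfr, the epidermal growth factor receptor, went from 643 ± 62.8 to 28.3 ± 4.04 normalized counts (-4.50). The receptor that rose among those with a mean of at least 100 normalized counts was Fgfr2 (0.42, adjusted p = 1.7e-04 by edgeR). A receptor kinase of low counts, Ret, also rose and had 35, 29 and 48 counts with TNF-α+EMO and 0, 1 and 1 with TNF-α. It lies outside the naming rule and was chosen after its values were seen. The log2 fold change of Pdgfra was below those of 17 of the 18 tested receptors of this list, the exception being Ror1. Flt1, from the list of relatives, was also below Pdgfra (-6.78), on 1, 0 and 1 counts with TNF-α+EMO.

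Genes that carry the signal on from the receptors had a median closer to that of all genes. Of 24 tested receptor-proximal genes, 19 passed (79.2%, close to the 80.9% of all genes), 14 lower and 5 higher (41.4% and 39.4% of all genes), and their median log2 fold change was -0.36. Pik3r1, the p85α subunit of PI3K that docks on the activated receptors, fell from 2682 ± 119 to 227 ± 14.2 normalized counts (log2 fold change -3.56, adjusted p = 2e-11 by edgeR). The guanine nucleotide exchange factor Vav2 (-2.17) also fell. Fyn, a kinase of the Src family, rose from 147 to 1005 normalized counts (log2 fold change 2.77 ± 0.09 SE, edgeR, adjusted p = 4.1e-10), and the adaptors Gab1 and Crk rose by 0.42 and 0.39 on the log2 scale. The members that did not pass were Sos1, Pik3ca, Pik3cb, Src and Nck1 (these 5 were picked out after their values were seen), with log2 fold changes of -0.25 to 0.07.

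Genes that dampen PDGF receptor signalling were mostly lower. Of 18 tested, 16 passed, 15 lower and 1 higher. The share that passed, 88.9%, was near the 80.9% of all tested genes, of which 41.4% were lower, and the median log2 fold change was -1.22 against -0.01. Dusp6, a phosphatase of ERK whose transcription follows ERK activity, had 1745, 1706 and 1694 counts with TNF-α and 62, 78 and 86 with TNF-α+EMO (log2 fold change -4.44 ± 0.11 SE, edgeR, adjusted p = 4.4e-11). Spry4 (-2.66) and Spred1 (-2.15), inhibitors of the Ras-MAPK cascade, fell as well. Ptpn2, a tyrosine phosphatase, was the member that rose (0.38, adjusted p = 0.0017 by edgeR).

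Immediate early and early genes known to respond to PDGF went both ways. Of 24 tested, 19 passed, 12 lower and 7 higher. This share of 79.2% was close to the 80.9% of all tested genes (41.4% lower and 39.4% higher), and the list's median was -0.46 on the log2 scale. Ccn2, the connective tissue growth factor, fell from 11149 ± 522 to 65.2 ± 23.4 normalized counts (-7.42, adjusted p = 7.1e-10 by edgeR), and Egr1, a transcription factor induced by growth factors, from 1025 ± 53.6 to 22.9 ± 2.20 (-5.48, adjusted p = 1.7e-11). Ccl2, a monocyte chemokine, had a log2 fold change of -4.39. The stress-responsive Atf3 rose from 17.3 ± 2.20 to 859 ± 3.66 normalized counts (5.63, adjusted p = 1.7e-11 by edgeR), as did the AP-1 genes Jund (2.50) and Fosl1 (2.40). These genes answer to many stimuli besides PDGF.

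**Figure D4:**
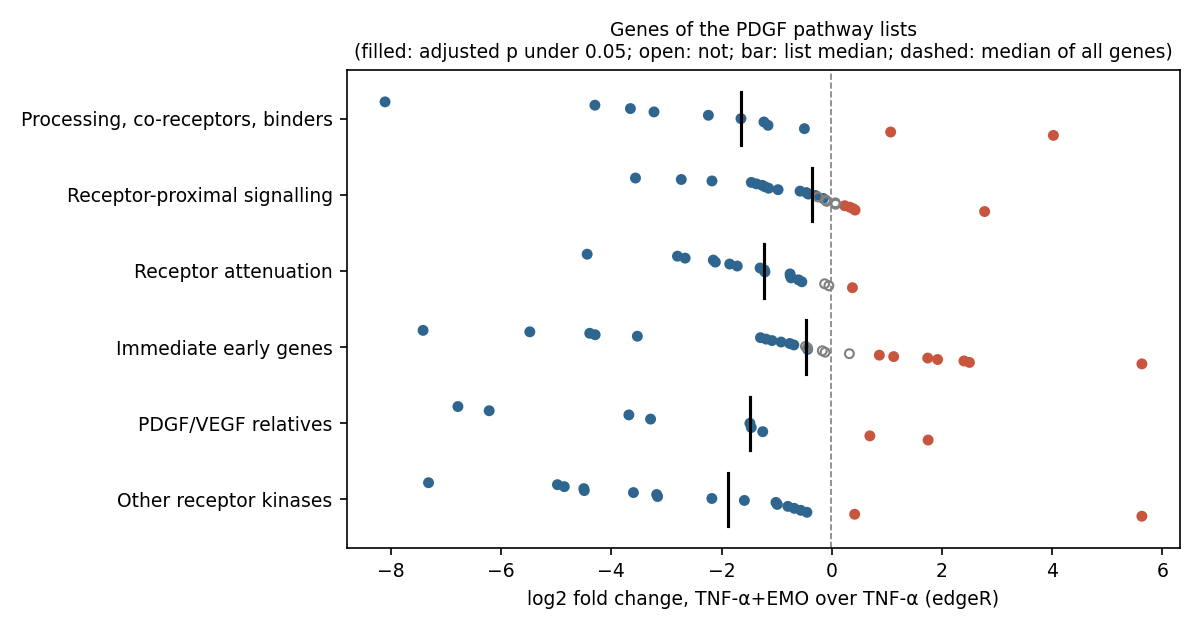
Log2 fold change of TNF-α+EMO over TNF-α for each tested gene of the 6 lists around the PDGF family, with filled points for genes that passed an adjusted p of 0.05, open points for those that did not, a bar at the list's median and a dashed line at the median of all tested genes (-0.01). The median lies at -0.36 for receptor-proximal genes, -0.46 for immediate early genes and between -1.88 and -1.22 for the other lists.

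The genes around the PDGF loci, named here by their position, did not share 1 direction, and among all tested genes too 39.4% were higher and 41.4% lower. Within 500 kb of Pdgfra, 3 other genes were tested. The ubiquitin ligase gene Lnx1 (-3.14) and an unnamed gene (-8.77) were lower and Chic2 (0.71) was higher, while Kit, the neighbouring receptor gene, had 1 count. Within 500 kb of Pdgfrb, 9 were tested, 5 lower and 3 higher, from -7.78 for Cd74 to 3.16 for Arhgef37, and Csnk1a1 did not pass (-0.07). Arhgef37 had at most 16 counts in any library (SE 0.82). Around Pdgfa, 7 of 13 tested genes were higher and 6 lower. Around Pdgfb, 8 of 23 were higher and 12 lower, around Pdgfd the 1 tested gene did not pass, and around Pdgfc no gene was tested. The counting program and strand setting are not given in the sources used here, so reads of overlapping genes could be misassigned. Genes that overlapped a member held at most 6 counts, and they overlapped Pdgfra, Pdgfc and Pdgfd only.

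**Figure D5:**
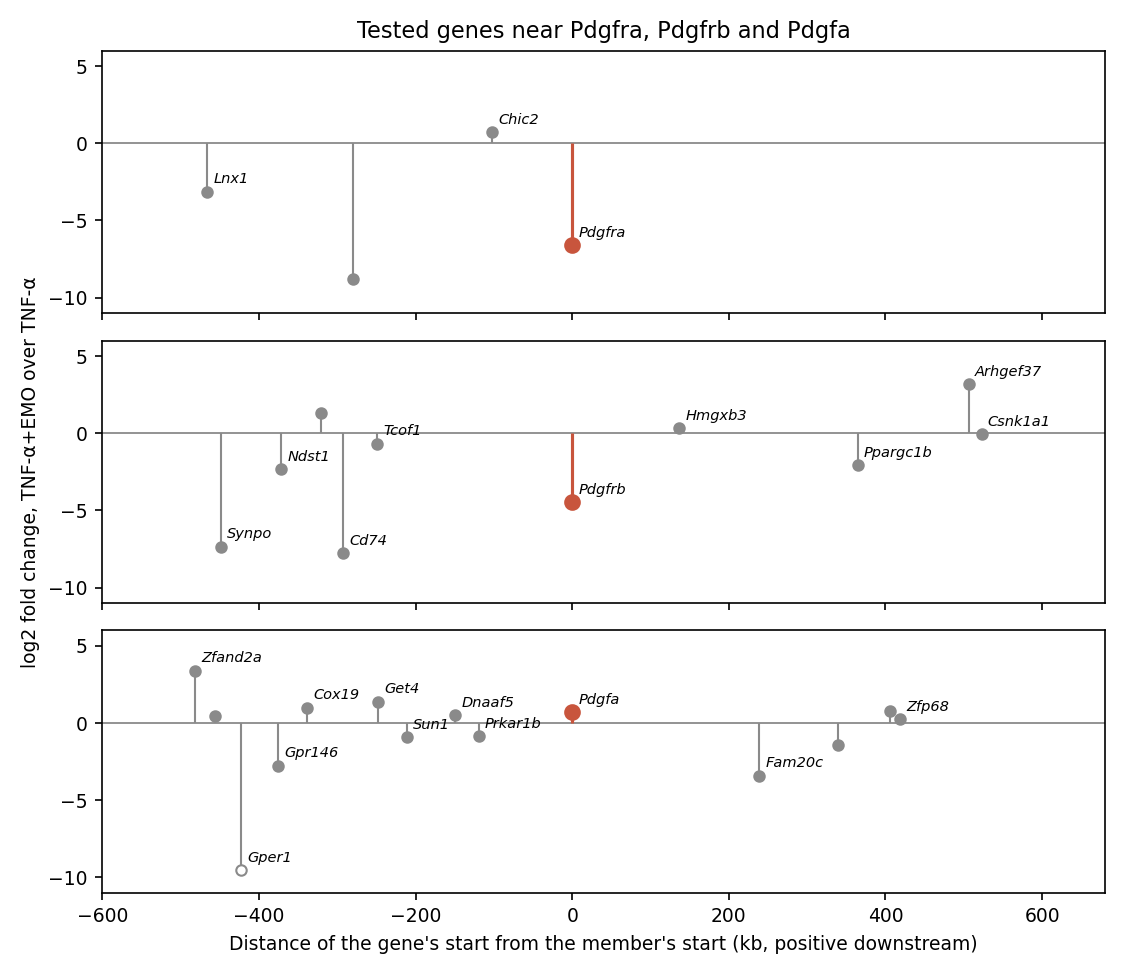
Log2 fold change of TNF-α+EMO over TNF-α (edgeR) of tested genes that reach within 500 kb of the body of Pdgfra, Pdgfrb or Pdgfa, against the distance in kilobases of each gene's start from the start of the member (coloured point at 0). Open points mark genes with 0 counts in every library of 1 group, whose fitted value depends on the small count that edgeR adds. Genes on both sides of 0 lie near all 3 members, from -7.78 to 3.16 around Pdgfrb, the latter on at most 16 counts in any library.

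Each tested member had genes of nearly the same pattern over the 6 libraries, measured by the root mean square difference in centred log2 CPM among 9623 named genes with a mean of at least 100 normalized counts. The genes most like Pdgfra were Cit (0.080) and Nusap1 (0.111), known for roles in cell division, with log2 fold changes of -6.68 and -6.45. Those most like Pdgfrb were Herc3 (0.039) and Gpm6b (0.057). Pdgfa was nearest to Mrpl48 (0.035) and Ess2 (0.038), and Pdgfc to Chsy1 (0.027) and Ift46 (0.030). With 6 libraries in 2 groups, this likeness mostly describes the size of the difference between the groups.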

How the data were processed

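Poly(A) RNA of 6 rat RA-FLS libraries was sequenced as read pairs. Per the labels and the study's methods, reads were cleaned and aligned with HISAT2 (2.0.5) to Rnor_6.0, and the counting program is not given in the sources used here. The authors deposited raw counts per gene without normalization, which were used for every test, together with FPKM values (counts per gene length with 1 scaling constant per library, not needed beyond the counts). The authors also deposited their own comparison (group mean signal after size factor scaling, log2 fold change, p-value and adjusted p-value per gene), which was not used.

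Genes that reached 10 counts in 3 or more libraries (13614 of 34156) were normalized by TMM and tested with edgeR 4.0.16 in R 4.3.3 (robust quasi-likelihood F test, Benjamini-Hochberg adjustment over all tested genes). The standard error is the size of the log2 fold change divided by the square root of F. Where a gene reached 10 counts in a single group, the filter set its direction, in the marker lists too. Levels between genes were compared only as TMM-scaled CPM per kilobase of the deposited gene length. Intervals cover counting error only, and floors (3 counts over a group) cover it only for the group at 0. With 3 libraries against 3, an exact permutation test cannot go below p = 0.1. Fits were checked on simulated data in which few genes changed, equally in both directions. That simulation did not cover differences as many or as large as those in these data.

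The members and gene lists were chosen with earlier results of these data known. Named genes were the 6 members, all of the processing and relatives lists, the 3 highest and 3 lowest passing genes of each other list with a mean of at least 100 normalized counts, and the 2 genes most like each tested member. One gene that the rule names is not reported here. Listed genes under older symbols, such as Ctgf beside Ccn2, were not analysed here. Protein sequences were not analysed here. The replicate numbers, shared by both groups in the labels, did not pair the libraries (correlations of same-numbered deviations of 0.020, -0.001 and 0.057), so no block was used. Alternatives were other scalings (RLE, upper quartile, library totals), DESeq2 1.42.0, limma-voom (limma 3.58.1), other filters on low counts, the block and leaving out each library.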

Additional observations from a re-analysis of the deposited data

How the results depend on the processing

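Over 14 alternatives, the log2 fold change ranged from -6.70 to -6.47 for Pdgfra, from -4.56 to -4.42 for Pdgfrb, from 0.60 to 0.76 for Pdgfa (largest adjusted p 2.6e-04) and from -1.24 to -1.10 for Pdgfc, and each kept its direction and passed in all of them. In the fit with a replicate block, the values were -6.60, -4.45, 0.72 and -1.13, 10806 genes passed in place of 11008, and no call on a member changed, although the check of the numbers gave no pairing. Leaving out each library in turn gave -6.69 to -6.47, -4.49 to -4.42, 0.65 to 0.76 and -1.20 to -1.10, with 10450 to 11156 genes passing. Over the same fits, the share of Pdgfra among receptors fell by 25.9 to 30.2 percentage points and that of Pdgfa among ligands rose by 29.4 to 32.1. Scaling by library totals moved the median of all tested genes from -0.01 to -0.13, and Pdgfa kept 0.60 there. All these scalings are relative to the other genes of a library, so a difference in total RNA per cell was not measured. Without the filter on low counts, Pdgfb could be fitted by edgeR and was lower (adjusted p = 0.011), whereas Pdgfd did not pass (adjusted p = 0.45). DESeq2 gave no adjusted p for either gene there. Depth limits Pdgfb and Pdgfd, where a difference rests on 12 counts and 1 count.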
